A study of Homo sapiens with 2 samples.

Results

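Cytosolic ribosomal proteins are the protein subunits of the ribosome that translates messenger RNA in the cytoplasm. Their genes were chosen by symbol, RPL and RPLP for the large (60S) subunit and RPS and RPSA for the small (40S) subunit, among array probes annotated with exactly 1 gene symbol. This gave 63 genes of 18377 measured, from 91 probes, namely 41 RPL and 22 RPS genes. The pattern matches 84 protein-coding symbols of RefSeq, and the others are not analysed here.

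Expression was measured on 2 whole-transcript Affymetrix Gene 1.0 ST arrays of K562, an established human leukaemia line driven by the fusion kinase BCR-ABL1. Imatinib, a drug that blocks this kinase, was given to both at 2 µM for 6 h, so the comparison has no untreated cells. One culture was grown with erythropoietin (EPO), the hormone that drives red cell formation, and the other is read as grown without it, because its label names none and the growth protocol describes both conditions. There is 1 array per group, so no difference below has a replicate error or a test. K562 is 1 cell line, and the labels give no further detail of the cultures.

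Each ribosome joins a large subunit, which forms peptide bonds, to a small subunit, which reads the message. Cells make the ribosomal proteins in matched amounts, and most of their messenger RNAs begin with a 5′ terminal oligopyrimidine (TOP) tract, a C followed by pyrimidines, through which the mTORC1 kinase pathway and LARP1 control their translation. Red cell precursors are sensitive to shortage of these proteins: mutations in many of the genes cause Diamond-Blackfan anaemia.

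The deposited values lie about 0, because the authors centred every probe on a baseline that the labels do not describe. A value is a log2 deviation from that baseline, with the base of the logarithm read as 2, and is not a level of the transcript. All differences are the value with EPO minus the value without EPO, in which the baseline cancels. Over all probes the SD was 0.134 with EPO and 0.431 without EPO, and the median difference of all genes was -0.047. Of the 18377 genes, 8343 (45.4%) had a difference above 0 and 10032 below it, which is the background for such counts below. Centred values do not show which genes are expressed, so the cell type could not be checked by its markers. Of 8 measured erythroid markers, 7 lay above 0 with a median difference of 0.28, led by TFRC at 1.02, ALAS2 at 0.84 and AHSP at 0.63. Of 14 markers of other blood cells, 13 lay below 0 with a median of -0.22, and LYZ at 1.05, FCN1 at -0.77 and CD7 at -0.67 differed most. The part of either in the results was not tested. In bulk RNA, fewer cells of a kind and less RNA per cell cannot be told apart.

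The sequences about the annotated transcription start show what the family shares beyond its name. RefSeq starts (GRCh38.p14) were listed for 52 of the 63 genes, and a start was counted as TOP where its first base is a C followed by at least 4 further C or T. The 6 genes with the highest difference among those listed are shown first, from 40 bases before the start to 20 after it, 5′ to 3′, with the TOP tract in capitals. Where a gene had several listed starts, a start with the tract was shown if any had it, and a gene counts as TOP by the same rule.
RPL7L1 (chr6:42879576-42879635, + strand): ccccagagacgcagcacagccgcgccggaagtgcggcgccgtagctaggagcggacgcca
RPS13 (chr11:17077648-17077707, - strand): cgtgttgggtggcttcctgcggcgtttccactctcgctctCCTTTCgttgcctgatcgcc
RPS23 (chr5:82278335-82278394, - strand): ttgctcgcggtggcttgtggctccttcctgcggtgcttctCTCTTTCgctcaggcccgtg
RPL32 (chr3:12841546-12841605, - strand): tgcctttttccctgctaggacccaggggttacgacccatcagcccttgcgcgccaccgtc
RPS7 (chr2:3575220-3575279, + strand): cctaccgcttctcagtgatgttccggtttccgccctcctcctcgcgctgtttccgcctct
RPL22 (chr1:6199576-6199635, - strand): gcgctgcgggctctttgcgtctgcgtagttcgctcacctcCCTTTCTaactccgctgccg
RPS13, RPS23 and RPL22 carry the tract at the listed start, and RPL7L1, RPL32 and RPS7 do not.

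The 3 listed genes with differences nearest 0 are shown in the same way.
RPL17 (chr18:49492446-49492505, - strand): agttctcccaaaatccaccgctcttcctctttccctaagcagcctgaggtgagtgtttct
RPL18 (chr19:48619159-48619218, - strand): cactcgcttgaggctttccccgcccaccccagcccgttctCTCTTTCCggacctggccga
RPL11 (chr1:23691766-23691825, + strand): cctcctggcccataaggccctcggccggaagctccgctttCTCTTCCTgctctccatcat
RPL18 and RPL11 carry the tract, and RPL17 does not. RPL11 has 2 listed starts, so its window follows the rule above.

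The 6 listed genes with the lowest differences follow.
RPS21 (chr20:62387063-62387122, + strand): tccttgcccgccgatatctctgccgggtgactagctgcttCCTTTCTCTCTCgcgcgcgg
RPL26 (chr17:8383174-8383233, - strand): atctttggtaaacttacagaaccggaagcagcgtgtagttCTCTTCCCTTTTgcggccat
RPL36 (chr19:5690255-5690314, + strand): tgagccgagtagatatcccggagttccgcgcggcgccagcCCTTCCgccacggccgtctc
RPS27 (chr1:153990722-153990781, + strand): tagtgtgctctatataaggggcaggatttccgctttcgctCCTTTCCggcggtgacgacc
RPL13 (chr16:89560642-89560701, + strand): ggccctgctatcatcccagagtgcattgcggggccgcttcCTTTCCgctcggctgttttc
RPS9 (chr19:54200818-54200877, + strand): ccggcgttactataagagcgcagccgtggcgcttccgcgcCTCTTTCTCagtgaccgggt
All 6 carry the tract at the start shown. RPL13 has 3 listed starts, and the rule above shows a start with the tract, so for it the tract is given by the choice. Across the family, 37 of the 52 genes (71.2%) had a TOP start, against 5.14% of the 27305 genes in the table and 6 of 69 mitochondrial ribosomal protein genes (8.70%). The tract was 5 to 16 bases long, with a median of 8. The difference between the arrays had a median of 0.016 over the 37 genes with a TOP start and 0.037 over the 15 without one, with ranges of -0.61 to 0.92 and -0.34 to 1.17. This split rests on the listed starts. A tract at a start a few bases away would be missed, so the 15 genes are not shown to lack TOP messenger RNAs.

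Over the 63 genes the median difference was 0.027 and the mean 0.087, beside -0.047 and 0.078 over all genes. The values ran from -0.61 for RPS21 to 1.17 for RPL7L1, with 34 genes above 0 and 29 below it. Above 0 were thus 54.0% of the members, against 45.4% of all genes. At least 2-fold higher with EPO was 1 gene, RPL7L1, against 6.19% of all genes, and 0 were at least 2-fold lower, against 0.898% of all genes. At a threshold of 1.5-fold, 7 of 63 were higher, where the background was 18.1%, and 1 was lower, where it was 4.65%. The interquartile range of the family was 0.51, against 0.67 for all genes, and 18 members (28.6%) lay within 0.1 of 0, against 17.7% of all genes. The genes therefore lay on both sides of 0, and the share past either threshold was no greater than in all genes. With the median difference of mitochondrial ribosomal proteins (0.42) subtracted, which shifts the median of all genes by the same amount, 10 members lay above 0 and 53 below it, and each group median given below that lies between 0 and 0.42 turns negative.

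**Figure D1:**
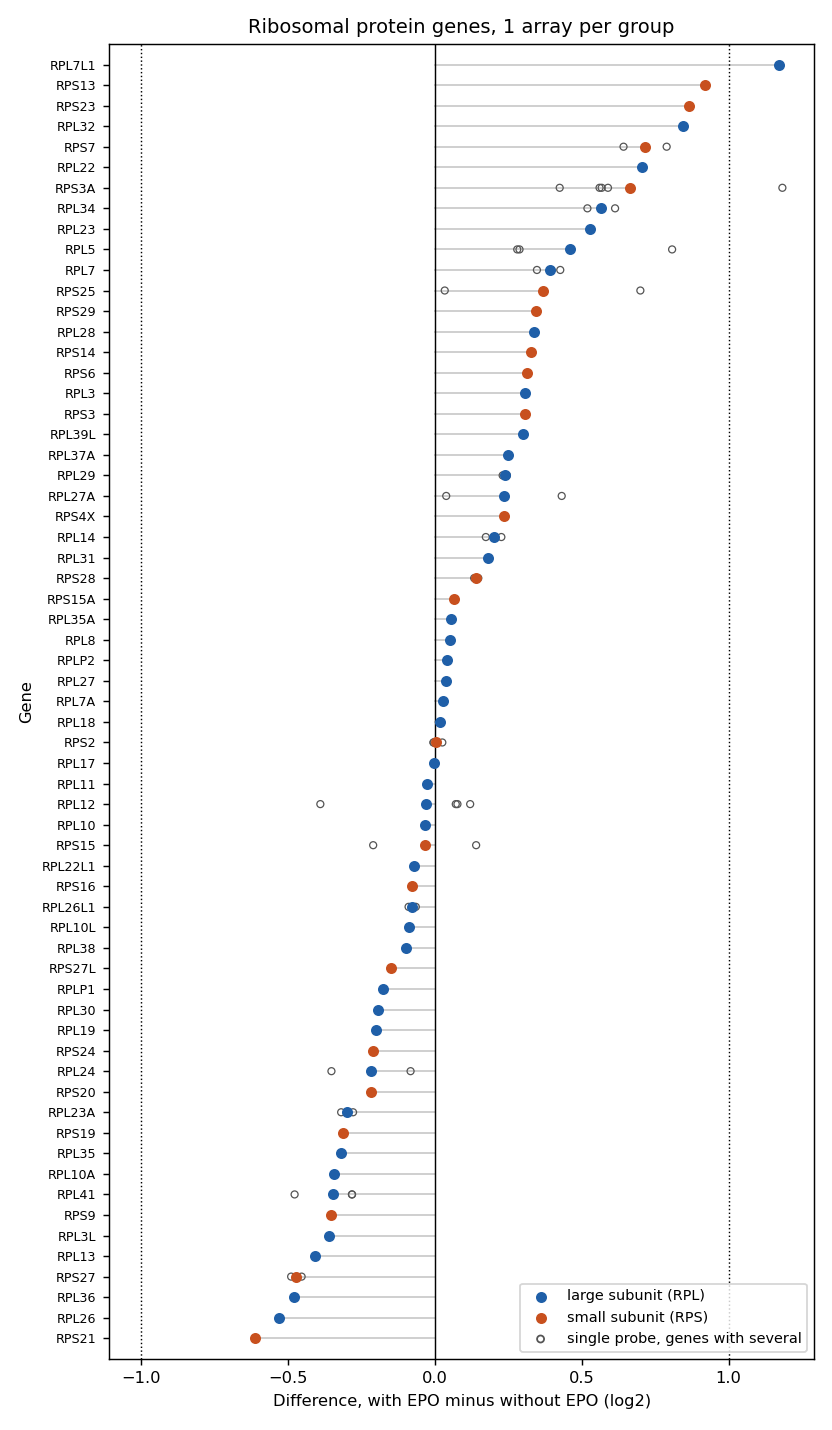
Difference between the array with EPO and the array without EPO (x axis, log2) for each of the 63 genes (y axis, ordered by difference), as filled points coloured by subunit, with open circles for single probes where a gene has several and dotted lines at 2-fold. RPL7L1 at 1.17 is the 1 filled point beyond a dotted line, and the points cross 0 with both subunits mixed along the whole order.

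The 41 RPL genes had a median difference of 0.016 and ranged from -0.53 to 1.17, with 21 above 0 and 20 below it. The 22 RPS genes had a median of 0.10 and ranged from -0.61 to 0.92, with 13 above 0 and 9 below it. The RPS median was thus 0.087 above the RPL median on the log2 scale, a gap that has no error or test here. At 1.5-fold, 3 RPL and 4 RPS genes were higher, and 0 RPL and 1 RPS gene were lower. Without the 4 genes whose probes spanned more than 0.5, the gap was 0.019.

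Within the small subunit, the proteins of the body and platform, the part that carries the decoding centre, held both ends of the distribution. The 13 measured genes had a median difference of 0.24, 9 of them above 0. RPS13 had the highest, with a value of 0.25 with EPO and -0.67 without EPO, a difference of 0.92 (1.89-fold). RPS23, whose protein lies at the decoding centre and affects the accuracy of translation, stood at 0.055 with EPO and -0.81 without EPO, a difference of 0.87 (1.82-fold). In both genes the array without EPO lay much further from the baseline than the array with EPO.

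RPS7, which also binds the p53 regulator MDM2, differed by 0.72, with 0.14 with EPO and -0.57 without EPO, and its probes stood at 0.64 and 0.79. RPS3A, an early-binding protein of the platform, differed by 0.67 as the mean of 5 probes that ranged from 0.42 to 1.18. RPS14, whose loss causes the anaemia of the 5q- syndrome, differed by 0.33, RPS6, the substrate of the S6 kinases, by 0.31 and RPS4X by 0.24. RPS15A at 0.064 and RPS2 at 0.0055 lay close to 0, and the 3 probes of RPS2 lay between -0.0046 and 0.025. These 9 genes were the ones above 0.

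The lowest gene of the family belonged to the same group. RPS21 stood at -0.22 with EPO and 0.39 without EPO, a difference of -0.61 (1.53-fold lower), and was the 1 member at least 1.5-fold lower. RPS27, a zinc finger protein, differed by -0.47, and its 2 probes agreed at -0.49 and -0.45. RPS9, which helps shape the messenger RNA entry, differed by -0.35 and RPS24 by -0.21.

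To show the regulatory sequence at these extremes, the region from 250 bases before to 20 after the start is given for the 2 standard genes with the highest and the 1 with the lowest difference. Capitals mark the TOP tract and each CGGAAG, the core of sites of ETS family factors, on either strand.
RPS13 (chr11:17077648-17077917, - strand): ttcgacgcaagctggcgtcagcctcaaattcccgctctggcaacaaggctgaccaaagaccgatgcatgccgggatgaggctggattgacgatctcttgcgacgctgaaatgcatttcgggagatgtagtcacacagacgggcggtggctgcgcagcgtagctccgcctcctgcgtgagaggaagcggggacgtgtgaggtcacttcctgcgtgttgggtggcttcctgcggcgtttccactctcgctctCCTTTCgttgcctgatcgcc
RPS23 (chr5:82278335-82278604, - strand): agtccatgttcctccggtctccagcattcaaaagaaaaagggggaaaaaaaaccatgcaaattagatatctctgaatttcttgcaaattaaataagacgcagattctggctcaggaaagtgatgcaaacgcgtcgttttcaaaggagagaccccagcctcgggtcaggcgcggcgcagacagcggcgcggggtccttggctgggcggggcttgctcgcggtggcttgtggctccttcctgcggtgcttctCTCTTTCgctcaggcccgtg
RPS21 (chr20:62386853-62387122, + strand): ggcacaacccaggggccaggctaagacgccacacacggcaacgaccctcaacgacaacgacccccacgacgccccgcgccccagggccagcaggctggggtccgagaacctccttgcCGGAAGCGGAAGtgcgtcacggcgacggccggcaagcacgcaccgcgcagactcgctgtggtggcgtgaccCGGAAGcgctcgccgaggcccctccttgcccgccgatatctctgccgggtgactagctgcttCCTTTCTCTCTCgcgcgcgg
RPS21 holds CGGAAG 3 times in this window, and the windows of RPS13 and RPS23 hold it 0 times. Among listed members, 34 of 52 (65.4%) held CGGAAG on either strand of the 300-base table window, against 22.6% of all genes, and their median difference was 0.039, beside -0.017 for the 18 without it. The element TCTCGCGA was held by 11 of the 52 (21.2%) against 1.37% of all genes, and those 11 had a median difference of -0.030. The STAT-type pattern TTCNNNGAA was in 1 of 52 promoters, that of RPL28, against 9.38% of all genes. AGATAA was likewise in 1 of 52 (1.92%), that of RPL19, against 12.4%, and CACGTG in 4 (7.69%) against 8.77%. GGGCGG was in 32 (61.5%) against 48.3%, and TATAAA in 6 (11.5%) against 14.0%. Searches covered both strands, the motifs may overlap one another, and a gene counts where any of its listed starts holds the letters.

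The head of the small subunit, which closes on the message and the transfer RNAs, was represented by 8 genes with a median of 0.054, 4 above 0 and 4 below it. RPS25 differed by 0.37, but its 2 probes stood at 0.034 and 0.70. RPS29 differed by 0.34, RPS3, which lines the messenger RNA entry, by 0.31 and RPS28 by 0.14. RPS15 at -0.035 had probes on both sides of 0, at -0.21 and 0.14. RPS16, whose tail reaches the peptidyl site, stood at -0.077 and RPS20 at -0.22. RPS19, the gene most often mutated in Diamond-Blackfan anaemia, stood at -0.19 with EPO and 0.13 without EPO, a difference of -0.31.

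In the large subunit, the 5S ribonucleoprotein joins RPL5 and RPL11 with the 5S ribosomal RNA and binds MDM2 when ribosome assembly fails. RPL5 stood at 0.000051 with EPO and -0.46 without EPO, a difference of 0.46, and its 3 probes lay at 0.28, 0.29 and 0.81. RPL11 stood at -0.041 with EPO and -0.014 without EPO, a difference of -0.026. The partners thus lay 1 well above 0 and 1 at 0, on probes that spread widely for RPL5.

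The stalk proteins recruit elongation factors to the ribosome. Of those measured, RPLP2 lay near 0 at 0.041 and RPLP1 lay lower at -0.18. RPL12, at the base of the stalk, averaged -0.030 over 4 probes, of which 3 lay between 0.071 and 0.12 and 1 at -0.39.

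Proteins at the tunnel through which the new peptide leaves had the lowest median of the groups of standard proteins, -0.20, with 5 of 7 measured genes below 0. RPL26, which also binds the p53 messenger RNA, stood at -0.33 with EPO and 0.20 without EPO, a difference of -0.53 (1.44-fold lower). RPL35 differed by -0.32, RPL23A, the docking site of the signal recognition particle, by -0.30 and RPL19 by -0.20, while RPL17 stood at -0.0043. RPL31 differed by 0.18. RPL22 was the highest of the group, with 0.18 with EPO and -0.52 without EPO, a difference of 0.71 (1.63-fold).

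The other 23 large subunit genes had a median of 0.050, with 15 above 0 and 8 below it. RPL32 was highest, at -0.0099 with EPO and -0.86 without EPO, a difference of 0.85 (1.80-fold). RPL34 differed by 0.57, RPL23, which contacts the small subunit and the assembly factor EIF6, by 0.53, and RPL7 by 0.39 with 3 probes between 0.35 and 0.43. RPL28 at 0.34, RPL3, which lies beside the peptidyl transferase centre, at 0.31, RPL37A at 0.25, RPL29 at 0.24, RPL27A at 0.24 and RPL14 at 0.20 followed. The probes of RPL27A stood at 0.039 and 0.43.

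Several of these 23 genes lay at 0. RPL35A at 0.056, RPL8, part of the peptidyl transferase centre, at 0.050, RPL27 at 0.037, RPL7A at 0.027, RPL18 at 0.016, RPL10, which is among the last to join and is needed for subunit joining, at -0.034 and RPL38 at -0.097 were all within 0.1. Lower values were -0.19 for RPL30, -0.22 for RPL24, -0.34 for RPL10A, -0.35 for RPL41, whose product is the smallest protein of the ribosome, -0.41 for RPL13 and -0.48 for RPL36. RPL36 stood at -0.19 with EPO and 0.29 without EPO, and RPL13 at -0.042 and 0.37. RPL10A was low on the array with EPO alone, at -0.37 against -0.022 without EPO.

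**Figure D2:**
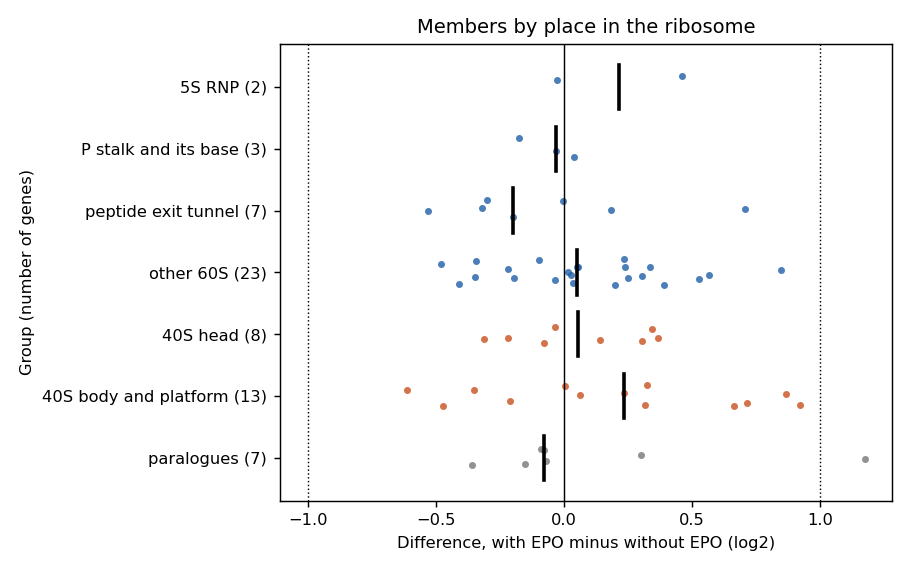
Difference with EPO minus without EPO (x axis, log2) of the 63 genes by place in the ribosome (y axis, number of genes in brackets), with a point per gene, a bar at the group's median and dotted lines at 2-fold; blue marks the large subunit, orange the small subunit and grey the paralogues. The bar of the peptide exit tunnel lies at -0.20 and that of the 40S body and platform at 0.24, and the points of all groups overlap.

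The symbol pattern also took in 7 paralogues that are not part of the standard ribosome, with a median difference of -0.077 and 5 of 7 below 0. RPL7L1, a nucleolar factor of large subunit maturation rather than a subunit of the mature ribosome, stood at 0.20 with EPO and -0.97 without EPO, a difference of 1.17 (2.25-fold), beside 0.39 for RPL7. RPL22L1 differed by -0.070, which is 0.78 below RPL22. RPL3L, the form of striated muscle, differed by -0.36, beside 0.31 for RPL3, and RPL10L, the testis form, by -0.089, beside -0.034 for RPL10. RPL26L1 at -0.077 lay above RPL26, and RPS27L, a p53 target, at -0.15 lay above RPS27. RPL39L differed by 0.30, and RPL39 was not analysed here. Paralogues and processed pseudogenes share near-identical sequence with the standard genes, so signal may be shared between them, which was not tested.

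Without the paralogues, 0 of 56 standard genes were 2-fold higher and 0 were 2-fold lower, and their median difference was 0.039. The same 56 genes had medians of -0.0053 with EPO and -0.049 without EPO against the baseline. The 17 measured Diamond-Blackfan anaemia genes had a median of 0.037, with 10 above 0 and 7 below it, and ranged from -0.53 for RPL26 to 0.72 for RPS7.

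The arrays did not lie equally far from the baseline. With EPO the 63 genes ran from -0.37 to 0.25 (SD over genes 0.12), and without EPO from -0.97 to 0.39 (SD over genes 0.30). The value with EPO was the closer to 0 in 49 of 63 genes (77.8%), against 82.6% of all genes. In 51 members the signs were opposite, 27 of them above the baseline with EPO and below it without, and 24 the other way round. Opposite signs were found in 83.1% of all genes. Across the 63 genes the values of the arrays correlated at Pearson r = -0.66, and across all 18377 genes at -0.69. The points share the 2 arrays and their common baseline, so these coefficients are given as a description only. In both respects the family followed the table as a whole.

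**Figure D3:**
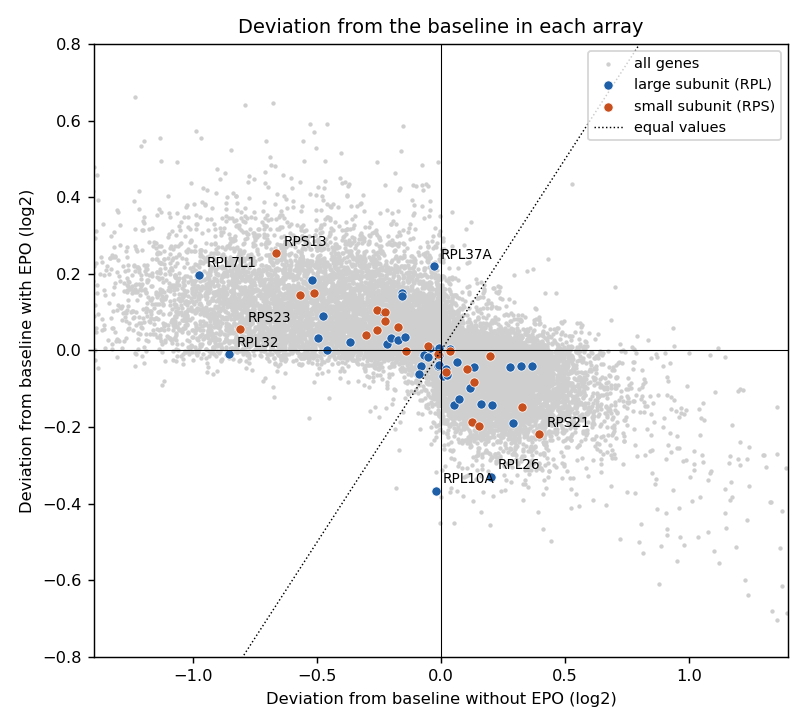
Log2 deviation from the authors' baseline without EPO (x axis) and with EPO (y axis), with all genes in grey, RPL genes in blue, RPS genes in orange and a dotted line of equal values; 105 genes lie outside the axes. The members run along the grey cloud from RPL7L1 and RPS13 at upper left to RPS21 at lower right, over a wider range without EPO than with EPO.

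Of the 63 genes, 18 had several probes, and the difference of a gene's highest probe exceeded that of its lowest by a median of 0.12 (log2), against 0.18 for the 685 such genes in the table. The gap exceeded 0.5 for RPS3A, RPS25, RPL5 and RPL12. For 3 genes, RPL12, RPS15 and RPS2, the probes lay on both sides of 0. Probes of 1 symbol thus disagreed by up to the size of many of the differences between the arrays. Whether all probes of a symbol lie at the gene's own locus was not checked.

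Other lists of the same pathway had higher medians than the family. Other genes known for TOP messenger RNAs (19 of 21 measured) had a median of 0.39, with 1 at least 2-fold higher, EIF4B, a helper of the initiation helicase, at 1.02, and 0 lower, where 6.19% of all genes were higher and 0.898% lower. The elongation factor subunits EEF1A1 at 0.046, EEF1D at -0.0077 and EEF1B2 at -0.17, and FAU, which encodes a ribosomal protein fused to a ubiquitin-like domain, at -0.42, were among the lower values. EEF2, the translocase, at 0.53, the poly(A)-binding protein PABPC1 at 0.77 and the initiation factor subunits EIF3E at 0.70 and EIF3F at 0.86 were among the higher values, with the histone chaperone NAP1L1 at 0.99.

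A list of 17 genes of mTORC1 and its regulators, cap-binding control, LARP proteins and RPS6K kinases had a median of 0.36, with 2 at least 2-fold higher and 0 lower, where 6.19% of all genes were higher and 0.898% lower. It includes RPS6KA1, RPS6KA2 and RPS6KA3, which are activated by ERK rather than by mTORC1. EIF4EBP2, a repressor of the cap-binding protein, stood at 1.20 and the kinase RPS6KA3 at 1.06, and the RNA-binding protein LARP4 at 1.00 lay just short of the threshold. MTOR stood at 0.14, RPTOR at -0.040, RPS6KB1, which phosphorylates RPS6, at 0.44 and LARP1 at 0.53.

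Chaperones of ribosomal proteins and subunit assembly factors (22 genes) had a median of 0.61, with 5 at least 2-fold higher, 0 lower and 20 above 0. TSR2, the chaperone of RPS26, stood at 0.22 with EPO and -1.22 without EPO, a difference of 1.44 (2.72-fold). The kinase RIOK2 at 1.34, the export factor LTV1 at 1.32, the methyltransferase DIMT1 at 1.29 and PDCD2L at 1.10, all of the small subunit's maturation, were the other 4. RPF2, which loads the 5S ribonucleoprotein, stood at 0.93, SBDS at 0.12 and GRWD1, the chaperone of RPL3, at 0.091. Of all genes, 6.19% were at least 2-fold higher, 0.898% at least 2-fold lower and 45.4% above 0.

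Mitochondrial ribosomal proteins, which form a separate ribosome inside mitochondria, had a median of 0.42 over 73 genes, with 58 (79.5%) above 0, against 45.4% of all genes. At least 2-fold higher were 10 and lower 0, where 6.19% of all genes were higher and 0.898% lower. MRPL30 at 1.76, MRPL49 at 1.39 and MRPL9 at 1.39 were highest. Cytosolic ribosomal proteins had a median of 0.027 and 1 of 63 at least 2-fold higher. The difference between the families was not tested, because there is 1 array per group and genes are not replicates.

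**Figure D4:**
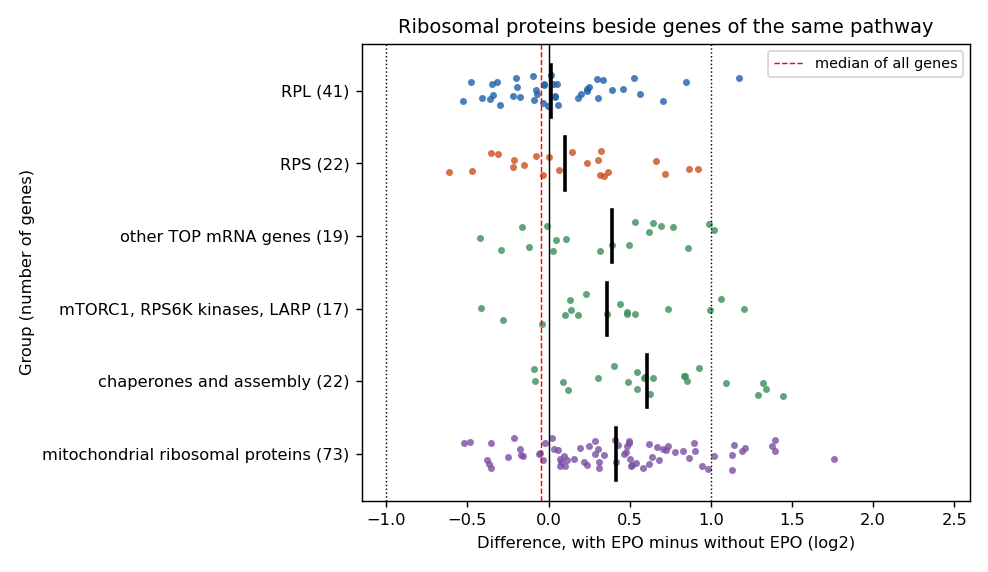
Difference with EPO minus without EPO (x axis, log2) of RPL and RPS genes and of 4 related gene groups (y axis, number of genes in brackets), with a point per gene, a bar at each median, dotted lines at 2-fold and a dashed line at the median of all genes. The bars of RPL (0.016) and RPS (0.10) lie near 0, and those of the other groups between 0.36 and 0.61.

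Many ribosomal protein genes carry small nucleolar RNAs, guides of ribosomal RNA modification, in their introns. The 17 measured genes of a list of 26 known hosts had a median difference of 0.027 and 0 past 2-fold. By RefSeq positions, 18 such RNAs measured by a probe of their own lie inside 12 of the members. Their median difference was -0.45, with 13 of 18 below 0, 4 at least 2-fold lower and 1 at least 2-fold higher, while the 12 hosts had a median of 0.034 and 0 past 2-fold. All 176 measured SNORA and SNORD genes had a median of -0.29, with 132 below 0. Of these 176, 37 were at least 2-fold lower and 2 higher, beside 0.898% and 6.19% of all genes. The RNA lay below its host in 12 of the 18 pairs. Several pairs share a host, so the 18 are not separate comparisons.

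SNORD54 stood at -0.70 with EPO and 2.01 without EPO, a difference of -2.70 (6.51-fold lower), inside RPS20 at -0.22. SNORA10 differed by -2.36, inside RPS2 at 0.0055. SNORD43 differed by -2.25, inside RPL3 at 0.31, and SNORA52 by -2.01, inside RPLP2 at 0.041. In these 4 pairs the hosts lay between -0.22 and 0.31, and the RNAs lay above the baseline without EPO and below it with EPO.

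RPL23A held RNAs that lay apart from each other. SNORD4A differed by 1.69 (3.22-fold), SNORD4B by 0.30 and SNORD42A by -0.24, while the host differed by -0.30. In RPL27A, SNORA3A differed by -0.97 and SNORA3B by 0.74. Several of these RNAs belong to families of similar copies, and such short targets are covered by few probes, so the identity of the signal is uncertain.

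**Figure D5:**
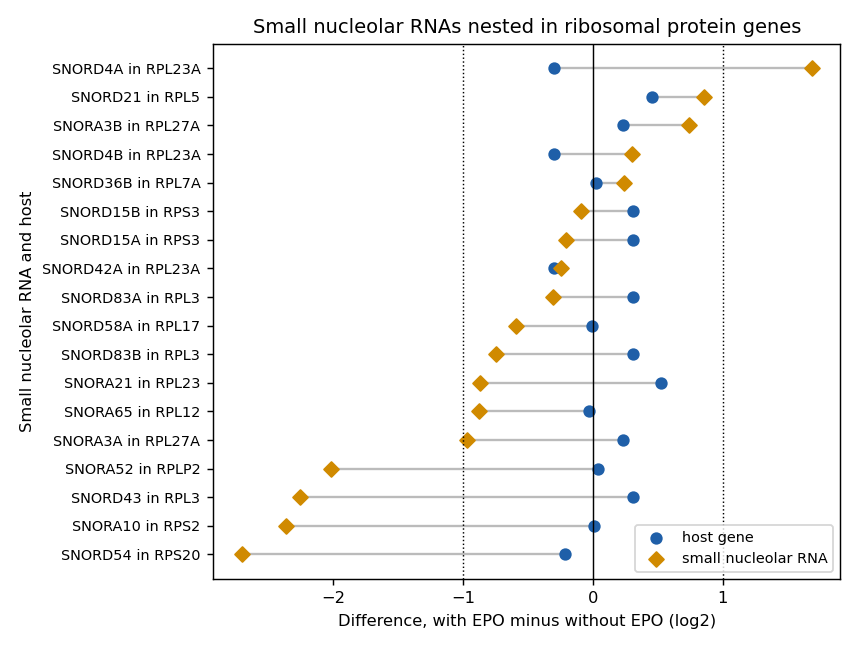
Difference with EPO minus without EPO (x axis, log2) of 18 small nucleolar RNAs (diamonds) and of the ribosomal protein gene in which each lies (circles), 1 pair per line of the y axis, with dotted lines at 2-fold. The circles lie between -0.30 and 0.53, and the diamonds between -2.70 and 1.69.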

How the data were processed

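Total RNA of 2 K562 samples was labelled and hybridised to Affymetrix Gene 1.0 ST arrays, 1 array per group, per the labels' protocols. The deposited table holds log2 values of 28869 probes, which the authors centred on a baseline. How background, summarisation and normalization were handled, and the logarithm base, is not stated in the labels. In 631 probes (2.19%) the array values mirrored each other about 0 within 1e-05.

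Probes were named through the platform annotation: 19310 carried 1 symbol, 1752 several and 7807 none. Probes of a gene were averaged. Calls need a 2-fold difference, which is 1 in log2 units. The number of arrays limits the precision. The counting of calls was checked on simulated data with shifts well past the threshold and little noise. That check covers the counting only and gives no error for a call. Members, gene lists and sequences were chosen with earlier results of these data known. The naming rule took the 8 highest and 8 lowest members, small groups, paralogues, genes with discordant probes and the 3 largest differences of each list. The other members and genes named were chosen after their values were seen. Alternatives were another fold threshold, other scalings, other rules for probes and members, and the mean. Promoter sequences are from RefSeq (GRCh38.p14). Python 3.11.15, NumPy 2.4.6, pandas 2.3.3 and matplotlib 3.10.9 were used.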

Additional observations from a re-analysis of the deposited data

How the results depend on the processing

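No paired analysis was possible because each group has 1 array. No alternative adds a replicate, so none of the values has an error. At 1.5-fold, 7 members were higher (3 RPL, 4 RPS) and 1 RPS gene was lower. With the median of all genes subtracted, the family median was 0.074, that of RPL 0.063 and that of RPS 0.15. With the median of mitochondrial ribosomal proteins subtracted, these were -0.39, -0.40 and -0.31, with 0 members 2-fold higher and 1 RPS gene lower, and over all genes 172 were higher and 857 lower, against 1138 and 165. With the probe of smallest difference, the medians were 0.037 for the family and 0.027 for RPL, and RPS lay 0.072 above RPL. With genes of 1 probe, they were 0.016 for the family, 0.0059 for RPL and 0.064 for RPS, a gap of 0.058. The means were 0.087, 0.064 and 0.13, a gap of 0.064. Without paralogues the medians were 0.039, 0.027 and 0.14, a gap of 0.11, and 0 members (0 RPL) were 2-fold higher. With probes of several symbols counted too, they were 0.038, 0.0084 and 0.072, a gap of 0.063, and 3 probes (2 RPS) were higher and 1 RPS probe lower. Without genes whose probes span over 0.5, an alternative chosen after seeing the data, the family median was 0.016, the RPS median 0.035 and the gap 0.019. Current symbols changed none of these values. RPS lay above RPL in each of these settings, but another threshold or a constant subtracted from all genes cannot change that gap. The other settings reuse the same 2 arrays, so the order of RPS and RPL was not tested.

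Against the baseline, the median of genes with 1 probe was -0.015 with EPO and -0.022 without EPO, and that without paralogues -0.049 without EPO. With the median of all genes subtracted, list medians were 0.26 for the 5S ribonucleoprotein, 0.017 for the stalk (which turned positive), -0.15 for the exit tunnel, 0.10 for the 40S head, 0.28 for the 40S body, -0.027 for the fixed list of 8 paralogues (the 7 members and RPL36AL at 0.43, which is no member), 0.084 for the anaemia genes, 0.074 for small nucleolar RNA hosts, 0.44 for other TOP genes, 0.41 for the mTORC1 and RPS6K list, 0.66 for assembly factors, 0.33 for erythroid markers, -0.17 for other blood cell markers and 0.46 for mitochondrial ribosomal proteins. List means were -0.055 for the stalk, -0.066 for the tunnel, 0.065 for the head, 0.19 for the body, 0.14 for the list of 8 paralogues (opposite in sign to its median), 0.011 for the anaemia genes, 0.15 for the hosts, 0.34 for other TOP genes, 0.37 for the mTORC1 and RPS6K list, 0.67 for assembly factors, 0.42 for erythroid and -0.27 for other blood cell markers. The sign changed in 5 single members with the median of all genes subtracted, in 24 with that of mitochondrial ribosomal proteins and in 3 with the probe of smallest difference.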

Other observations

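Outside the gene comparison, 47 probes carried a symbol of the family together with other symbols, such as pseudogenes, readthrough transcripts or small nucleolar RNAs, and are reported here as probes. Their median difference was -0.052, from -1.59 to 1.39. Of these probes, 1 was at least 2-fold higher and 1 at least 2-fold lower, against 6.19% and 0.898% of all genes. No share over all probes was taken. Both of the probes past 2-fold were among the 11 that also carry a small nucleolar RNA symbol, which had a median of -0.050. The other 36 ran from -0.55 to 0.57, with a median of -0.066, and 0 of them were past 2-fold.

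The mitochondrial ribosomal proteins of the large subunit (48 genes) had a median of 0.44, and 9 were at least 2-fold higher. Those of the small subunit (25 genes) had a median of 0.42, and 1 was at least 2-fold higher. Of all genes, 6.19% were at least 2-fold higher.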
